A study of Mus musculus with 6 samples.

Results

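Mitochondria keep a store of NADPH of their own, and with it they recharge the proteins that remove hydrogen peroxide. In the inner membrane NNT (nicotinamide nucleotide transhydrogenase, gene Nnt) uses the proton gradient to move hydride from NADH to NADP, and in the matrix IDH2 and ME3 make NADPH from isocitrate and malate. NADPH is then spent by glutathione reductase (Gsr), which recharges glutathione for the glutathione peroxidase Gpx1, and by thioredoxin reductase 2 (Txnrd2), which recharges thioredoxin 2 (Txn2) for the peroxiredoxin Prdx3. Sod2 turns superoxide of the matrix into hydrogen peroxide, and catalase (Cat), mainly in peroxisomes, breaks hydrogen peroxide down without NADPH. These 10 genes, taken by name from the 35297 genes to which the transcripts could be matched, were compared between mast cells of 2 mouse strains. All 10 were detected and all 10 were among the 12461 genes tested.

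The cells were BMMCs, mast cells grown from bone marrow of naive wild type mice with IL-3, IL-9, stem cell factor and TGF-β1 added to the medium, and their RNA was taken on day 20. There were 3 libraries of BALB/c (S9, S10 and S11) and 3 of C57BL/6 (S12, S13 and S14), with the same medium in both, and the labels name no treatment. The labels give the strain as C57BL/6 without a substrain, age or sex. The study's methods name female C57BL/6J mice for its airway experiments, and it gives C57BL/6J as the source of the BMMCs of a degranulation assay, while the marrow of these 3 libraries is described as C57BL/6. The study calls the 3 libraries of a strain biological replicates, and whether each came from its own animal is not stated, so the p-values measure the spread between these cultures. Strand-specific mRNA libraries were read, and Salmon estimated for each transcript the number of its reads (estimated count) and its TPM, a level per transcript length.

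Libraries held between 28273365 and 37100869 reads on genes, and replicate libraries varied beyond counting error, with chi-squares of 6.49 to 13.5 per degree of freedom over the genes tested. Of 10 mast cell genes (Kit, Fcer1a, Ms4a2, Cpa3 and others) all were detected, with a summed TPM of 38001 to 41702 in BALB/c and 31901 to 34210 in C57BL/6. The lower sum came mostly from Cma1 (means of 15389 and 10093 TPM). By edgeR 5 of the 10 were called higher in C57BL/6, among them Kit, Fcer1a and Ms4a2, whose TPM overlapped between the strains, and 2 lower. Macrophage genes summed to at most 1.77 TPM in BALB/c and 8.34 to 9.72 in C57BL/6, with C1qa, C1qb, C1qc and Csf1r at 0. Basophil genes summed to 507 to 523 and 624 to 652 TPM, a rise that came mostly from Mcpt8 (means of 178 and 342 TPM), while Cd200r3 had 339 and 286 TPM and was not called by edgeR. Neutrophil genes stayed at or under 0.689 TPM and eosinophil genes at or under 0.290. The part of these other cells in the differences below was not tested, and in bulk RNA fewer cells of a type and less RNA per cell cannot be told apart.

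For Nnt the tables list a single transcript, NM_001308506.1, of 3666 bases, which took 100% of the gene's reads in every library. C57BL/6J, the substrain whose genome is the mouse reference, is known to lack a run of internal exons of Nnt and to make no working NNT. The reference model Nnt-202 of GENCODE (17 exons and 3709 bases, with 835 codons in frame) accordingly joins its exon 7 (chr13:119518212-119518399, minus strand, GRCm39) to its exon 8 (chr13:119511165-119511310), across an intron of 6901 bases, at the place where those exons are known to be missing. The 60 bases across this join are shown because they mark how the reference model differs from the full gene, with the last 6 bases of exon 7 and the first 6 of exon 8 in capitals.
Nnt-202, exons 7 and 8: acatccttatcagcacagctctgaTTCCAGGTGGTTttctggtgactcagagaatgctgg
Of 61 Nnt transcripts in GENCODE, 29 hold this join. The listed transcript is close to Nnt-202 in length, and its own sequence was not used here. Reads from any exon that it lacks had no Nnt sequence to be assigned to, so the Nnt values below count reads on the exons it holds. Which exons the reads of either strain covered cannot be seen in tables of totals per transcript.

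All 3 genes that supply NADPH were lower in C57BL/6 than in BALB/c BMMCs, Nnt by 2.29-fold, Me3 by 3.02-fold and Idh2 by 1.49-fold. The peroxide-removing enzymes Gpx1 and Cat were higher, by 34.1% and 30.6%, and by less on other scales, with log2 fold changes of 0.42 and 0.39 against 0.28 and 0.24 with plain library sizes and 0.24 and 0.21 with limma on log2(TPM + 1). Glutathione reductase was higher by 15.3%, a call that was lost with plain library sizes and with limma on TPM, and for Txnrd2, Txn2, Prdx3 and Sod2 no difference was detected by the test. Thus 3 members were lower, 3 were higher and 4 were not called by the quasi-likelihood test of edgeR at a Benjamini-Hochberg adjusted p under 0.05. With plain library sizes 4 were lower, Txn2 in addition, and 2 higher, and with limma on log2(TPM + 1) 5 were lower and 2 higher. Over all genes, 52.9% of those tested were called, 27.0% higher and 25.9% lower in C57BL/6, so the members' share of 60.0% called is close to the background. This split of 3361 higher and 3227 lower genes became 2285 higher and 5520 lower with plain library sizes, and 2035 higher and 5834 lower with limma on log2(TPM + 1). Changes of over 2-fold were called for 2 members, Nnt and Me3, both lower (Nnt alone with limma on log2(TPM + 1)), against 13.3% of all genes in either direction, 7.73% higher and 5.54% lower. The median log2 fold change (C57BL/6 over BALB/c, as throughout) of the 10 members was 0.06 against -0.01 over all genes tested, and their median absolute log2 fold change was 0.30 against 0.24. The genes differ in position as well as in role, since they lie on 9 chromosomes, Idh2 and Me3 sharing chromosome 7 at 79741431-79765535 and 89278399-89503615 (GRCm39).

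**Figure D1:**
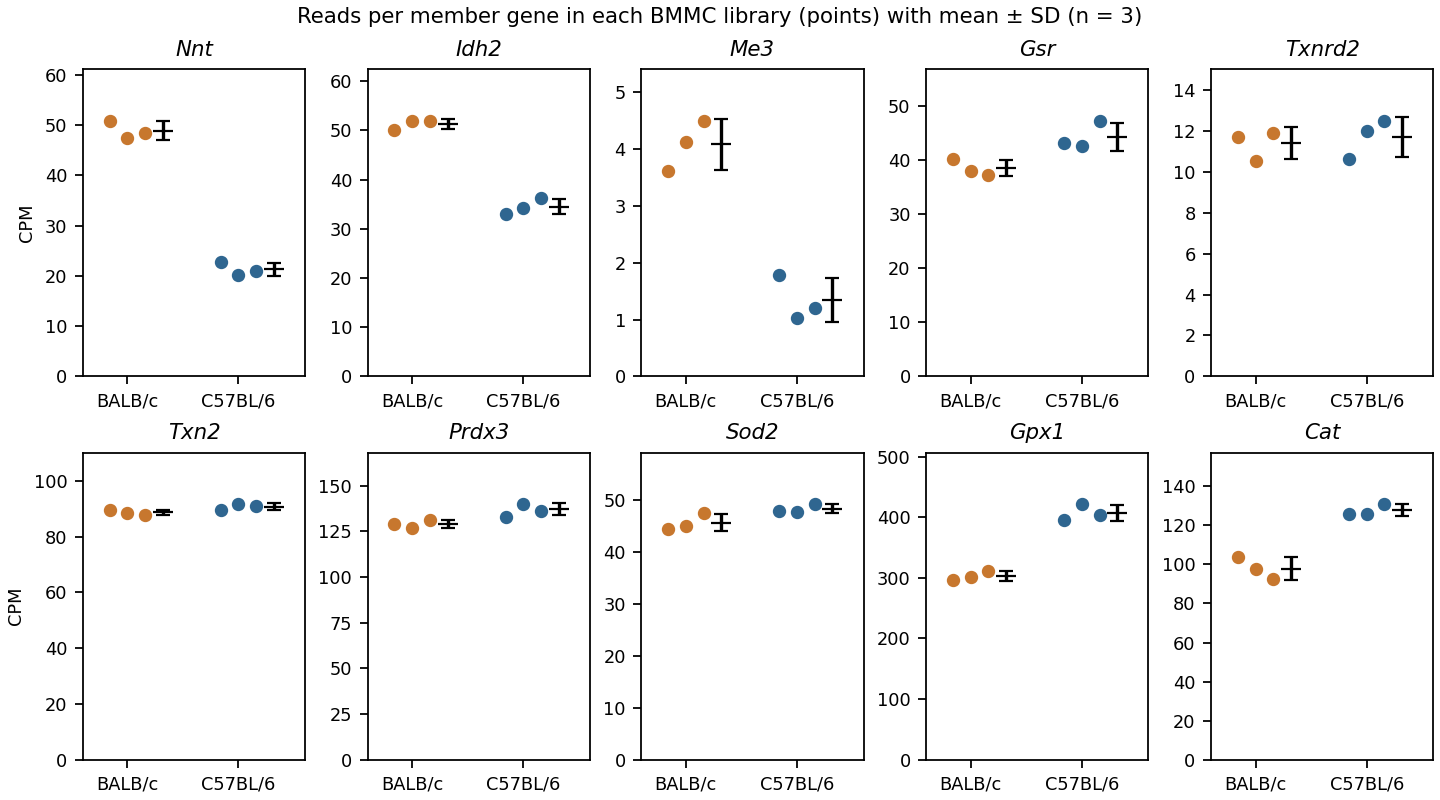
Read counts of the 10 genes in CPM (reads scaled to the corrected library size) for each library, BALB/c in orange and C57BL/6 in blue, with the mean and SD of the 3 libraries of a strain in black; every axis starts at 0 and has its own range. Nnt, Idh2 and Me3 lie lower in all 3 C57BL/6 libraries, Gsr, Gpx1 and Cat lie higher, and the libraries of the strains mix for Txnrd2 and Txn2.

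Nnt (chr13:119470859-119566380, minus strand, GRCm39) had 1622, 1414 and 1818 reads in S9, S10 and S11, and 728, 547 and 744 in S12, S13 and S14. Scaled to library size these were 50.9, 47.4 and 48.4 CPM in BALB/c against 22.8, 20.2 and 21.0 CPM in C57BL/6. Every C57BL/6 library thus lay below every BALB/c library, and Nnt RNA was present in both strains. The mean fell from 48.9 ± 1.82 CPM to 21.3 ± 1.31 CPM (SD, n = 3), or by a log2 fold change of -1.20 with a standard error of 0.06 and a 95% interval of -1.32 to -1.07 (adjusted p = 3.42e-07, quasi-likelihood test of edgeR, Benjamini-Hochberg). In absolute size this change lay at the 88.8th percentile of the genes tested. The test on single transcripts gave -1.22 ± 0.06 (SE) for NM_001308506.1, with an adjusted p of 0.000487 by the same edgeR test over 31918 transcripts, of which 13.6% were called and 6.32% with a change over 2-fold. Per length, Nnt had 19.9 ± 0.964 TPM in BALB/c and 7.70 ± 0.652 TPM in C57BL/6 (SD, n = 3).

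Of the genes beside Nnt on chromosome 13, no difference was detected in the nearest 2 with reads. On one side Paip1, which codes for a partner of the poly(A)-binding protein, had 35.5 ± 3.50 CPM in BALB/c against 36.9 ± 0.189 CPM in C57BL/6, and the next gene 4833420G17Rik had 26.6 ± 1.33 and 26.6 ± 1.44 CPM (SD, n = 3). Neither was called, with adjusted p of 0.528 and 0.975 by the quasi-likelihood test of edgeR, Benjamini-Hochberg adjusted. The 95% intervals of their log2 fold changes, -0.10 to 0.21 and -0.14 to 0.14, both lie apart from that of Nnt. The third, the non-coding RNA gene 3110070M22Rik, was lower in C57BL/6 from few reads, 1.11 ± 0.156 against 0.632 ± 0.154 CPM, with a log2 fold change of -0.82 ± 0.26 (SE, adjusted p = 0.0259, edgeR). On the other side Gm16263 and the growth factor gene Fgf10 had no reads in any library, and no transcript was matched to the pseudogene Gm47335.

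Idh2 (chr7:79741431-79765535, minus strand), which codes for the NADP-dependent isocitrate dehydrogenase of the matrix, had 50.1, 51.9 and 52.0 CPM in BALB/c against 33.1, 34.2 and 36.2 CPM in C57BL/6. The strains did not overlap, and the 3 libraries of each lay close together. The means were 51.3 ± 1.10 and 34.5 ± 1.59 CPM (SD, n = 3), with a log2 fold change of -0.57, a standard error of 0.05 and a 95% interval of -0.68 to -0.46 (adjusted p = 1.02e-05, quasi-likelihood test of edgeR, Benjamini-Hochberg). Nnt and Idh2 had similar read counts in BALB/c, but per length Idh2 was the higher gene in both strains. The ratio of the TPM of Idh2 to that of Nnt was 2.24, 2.49 and 2.45 in BALB/c against 3.31, 3.87 and 3.93 in C57BL/6.

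Me3 (chr7:89278399-89503615, plus strand), the mitochondrial malic enzyme that yields NADPH, was the least abundant member. It held 115, 123 and 169 BALB/c reads per library and 57, 28 and 43 C57BL/6 reads. These were 3.61, 4.13 and 4.50 CPM against 1.78, 1.03 and 1.21 CPM. The groups stood apart although the C57BL/6 libraries varied by 29.1% of their mean. Its log2 fold change of -1.59 had the widest interval of the members, -2.06 to -1.12, with a standard error of 0.21 (adjusted p = 0.000195, quasi-likelihood test of edgeR, Benjamini-Hochberg). With limma on log2(TPM + 1), a scale that understates changes of low genes, it was -0.93, under 2-fold. From 94.5% to 100% of its reads lay on a single predicted transcript, XM_017321927.2, whose own log2 fold change was -1.60 ± 0.34 (SE, adjusted p = 0.0343, edgeR over all transcripts). Of the 7 transcripts listed for Me3, 3 had reads. NM_181407.4, the only one of them that is not a predicted model, had 0 reads in every library. The values of Me3 are thus almost wholly those of 1 predicted transcript. Counted over all GENCODE transcripts of Me3, 18.5% of its words of 31 bases also occur in the zinc finger gene Zfp934 and 14.9% in Zfp69. Some of these few reads could thus belong elsewhere. Both had fewer reads in C57BL/6 as well, Zfp934 with 174, 148 and 208 against 92, 106 and 140, and Zfp69 with 61, 59 and 74 against 19, 15 and 25. Their part in the difference of Me3 was not tested.

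**Figure D2:**
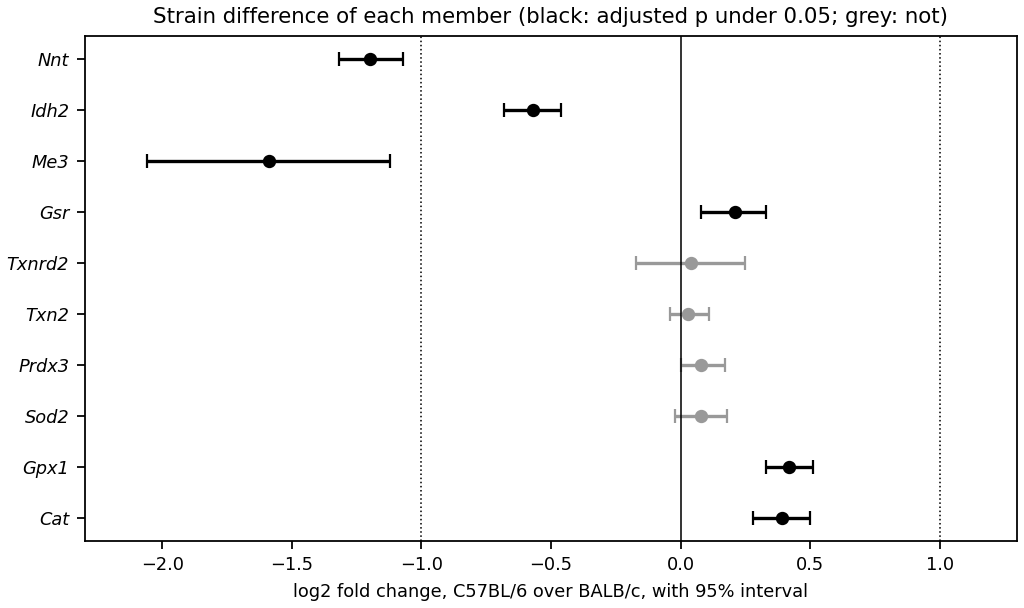
Log2 fold change (C57BL/6 over BALB/c) for each member with its 95% interval from edgeR's quasi-likelihood test; black points passed an adjusted p of 0.05, grey points did not, and dotted lines mark a 2-fold change. The intervals of Nnt (-1.32 to -1.07) and Me3 (-2.06 to -1.12) lie wholly beyond a 2-fold decrease in the fit on counts, and that of Gpx1 runs from 0.33 to 0.51.

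Among the genes of thiol reduction, Gsr (chr8:34142551-34188192, plus strand) had 40.2, 38.1 and 37.4 CPM in BALB/c against 43.2, 42.6 and 47.4 CPM in C57BL/6. The C57BL/6 libraries were all higher, by a small margin. The log2 fold change was 0.21 ± 0.05 (SE), with an interval of 0.08 to 0.33 and an adjusted p of 0.0109 by the quasi-likelihood test of edgeR, Benjamini-Hochberg adjusted. The size depended on the scaling: with plain library sizes it was 0.06 with an adjusted p of 0.366 in edgeR, and per length the strains overlapped at 20.9 to 23.1 TPM in BALB/c and 20.8 to 23.9 TPM in C57BL/6.

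Txnrd2, the thioredoxin reductase of mitochondria (chr16:18245134-18297823, plus strand), lay between 10.5 and 11.9 CPM in the BALB/c libraries and between 10.6 and 12.5 CPM in those of C57BL/6. The libraries of the strains overlapped, and the interval of the log2 fold change ran from -0.17 to 0.25 (adjusted p = 0.732, quasi-likelihood test of edgeR, Benjamini-Hochberg). Its substrate Txn2 (chr15:77799247-77818565, minus strand) had 89.5, 88.6 and 87.8 CPM in BALB/c against 89.4, 91.7 and 90.9 CPM in C57BL/6. These also overlapped, and the interval of -0.04 to 0.11 is among the narrowest of the members (adjusted p = 0.445, edgeR).

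Prdx3 (chr19:60852489-60863017, minus strand), the peroxiredoxin of the matrix, had 129, 127 and 131 CPM in BALB/c against 133, 140 and 136 CPM in C57BL/6. The log2 fold change of 0.08 had an interval of -0.00 to 0.17 (adjusted p = 0.0950, quasi-likelihood test of edgeR, Benjamini-Hochberg). Sod2 (chr17:13224095-13259591, plus strand), the manganese superoxide dismutase, had 44.3, 45.0 and 47.5 CPM in BALB/c against 47.9, 47.6 and 49.2 CPM in C57BL/6. Its log2 fold change was also 0.08, with an interval of -0.02 to 0.18 (adjusted p = 0.141, edgeR). Of the words of 31 bases in Sod2 transcripts, 16.5% also occur in Gm36684 (16 to 25 reads per library in BALB/c, 1 to 4 in C57BL/6) and 16.3% in Rps6ka2 (1871 to 2071 reads in BALB/c, 2712 to 3610 in C57BL/6). Their part in the Sod2 values was not tested. In both Prdx3 and Sod2 the C57BL/6 libraries lay just above the others without passing the test. The strains did not overlap in CPM for 8 of the 10 members, these 2 included, and for 61.9% of all genes tested.

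The sign of these small differences rested on the scaling. Per length, in TPM as deposited, the C57BL/6 libraries lay below all BALB/c libraries for Txn2 (102 to 104 against 111 to 117 TPM), Prdx3 (134 to 135 against 142 to 146 TPM) and Sod2 (15.9 to 17.0 against 17.4 to 18.1 TPM). The median of all genes moved by about as much, to a log2 fold change of -0.15 on log2(TPM + 1) and of -0.15 with plain library sizes in edgeR. For these 3 genes and for Txnrd2 no direction is therefore given here.

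**Figure D3:**
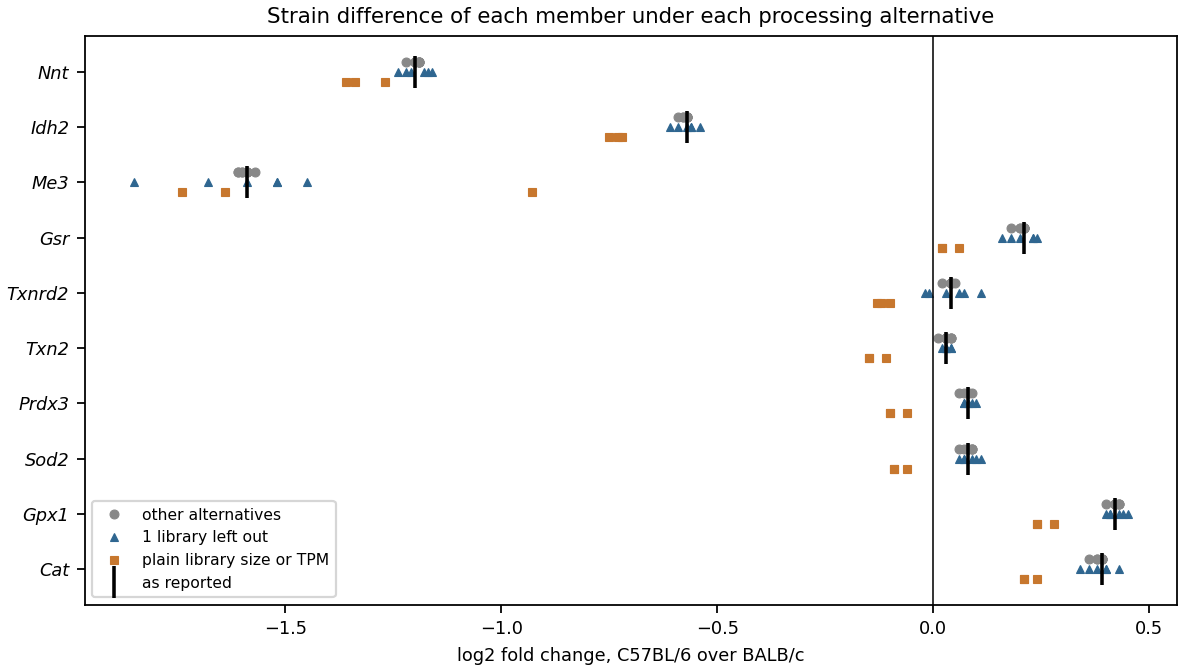
Log2 fold change (C57BL/6 over BALB/c) of each member as reported (black bar), with 1 library left out (blue triangles), with plain library size or on TPM (orange squares) and under the other alternatives (grey points). Nnt lies between -1.36 and -1.16 throughout, and Txnrd2, Txn2, Prdx3 and Sod2 have values on both sides of 0.

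Gpx1 (chr9:108216102-108217546, plus strand), the glutathione peroxidase of cytosol and mitochondria, was the most abundant member in each of the 6 libraries. It had 297, 301 and 312 CPM in BALB/c against 395, 422 and 404 CPM in C57BL/6. All C57BL/6 libraries lay above all BALB/c libraries. The means of 303 ± 7.93 and 407 ± 13.4 CPM (SD, n = 3) gave a log2 fold change of 0.42 ± 0.04 (SE) with an interval of 0.33 to 0.51 (adjusted p = 2.33e-05, quasi-likelihood test of edgeR, Benjamini-Hochberg). At least 98.7% of its reads lay on NM_008160.6 in every library. A second listed transcript, NM_001329527.1, held 0.508% to 1.31% of the reads, with an interval of -1.04 to 1.24 for its log2 fold change.

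Cat (chr2:103284194-103316185, minus strand) had 104, 97.5 and 92.3 CPM in BALB/c against 126, 126 and 131 CPM in C57BL/6. The strains did not overlap. The log2 fold change was 0.39 ± 0.05 (SE), with an interval of 0.28 to 0.50 (adjusted p = 0.000162, quasi-likelihood test of edgeR, Benjamini-Hochberg). Gpx1 and Cat remove the same substrate, and the ratio of their TPM overlapped between the strains, 7.90 to 9.34 in BALB/c and 8.45 to 9.20 in C57BL/6. Red cell precursors hold much catalase and Gpx1, and their 7 marker genes summed to 2.47 to 3.52 TPM in BALB/c and 17.3 to 17.7 TPM in C57BL/6. This sum came mostly from the beta globin gene Hbb-bt (listed at 0 in BALB/c and at a mean of 16.6 TPM in C57BL/6), while the erythroid factor Klf1 was at 1.79 and 0.480 TPM, Hba-a2 was at 0, and Alas2 had means of 0.0747 and 0.0139 TPM. Their part in the difference of Gpx1 and Cat was not tested.

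Taken per length, the levels of the members spanned from Gpx1 to Me3, with means of 498 and 2.05 TPM in BALB/c and of 589 and 0.602 TPM in C57BL/6. In BALB/c the order was Gpx1, Prdx3, Txn2, Cat, Idh2, Gsr, Nnt, Sod2, Txnrd2 and Me3, and of neighbours in this order only Gsr and Nnt overlapped between libraries (20.9 to 23.1 and 19.4 to 21.0 TPM). In C57BL/6 the order differed in 1 gene, Nnt, which had moved below Sod2 and Txnrd2, and at 7.09 to 8.39 TPM it overlapped with Txnrd2 (7.88 to 9.13 TPM). The summed TPM of the 3 NADPH-supplying genes was 70.0, 69.8 and 69.1 in BALB/c against 36.9, 35.0 and 38.1 in C57BL/6, a ratio of 0.526. Idh2 made the largest part of it, with means of 47.7 and 28.4 TPM. For the 3 thiol-reducing genes the sums were 150, 144 and 141 against 133, 131 and 137, a ratio of 0.921. All genes also shifted down on this scale, to a median log2 fold change of -0.15 on log2(TPM + 1). No direction is therefore given for the thiol-reducing sum. The 4 genes of peroxide and superoxide removal summed to 722, 712 and 721 in BALB/c, compared with 802, 812 and 809 in C57BL/6. Over all 10 members the sum was 926 to 941 against 972 to 984 TPM, of which Gpx1 alone made 52.7% to 54.2% in BALB/c and 59.7% to 61.0% in C57BL/6.

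**Figure D4:**
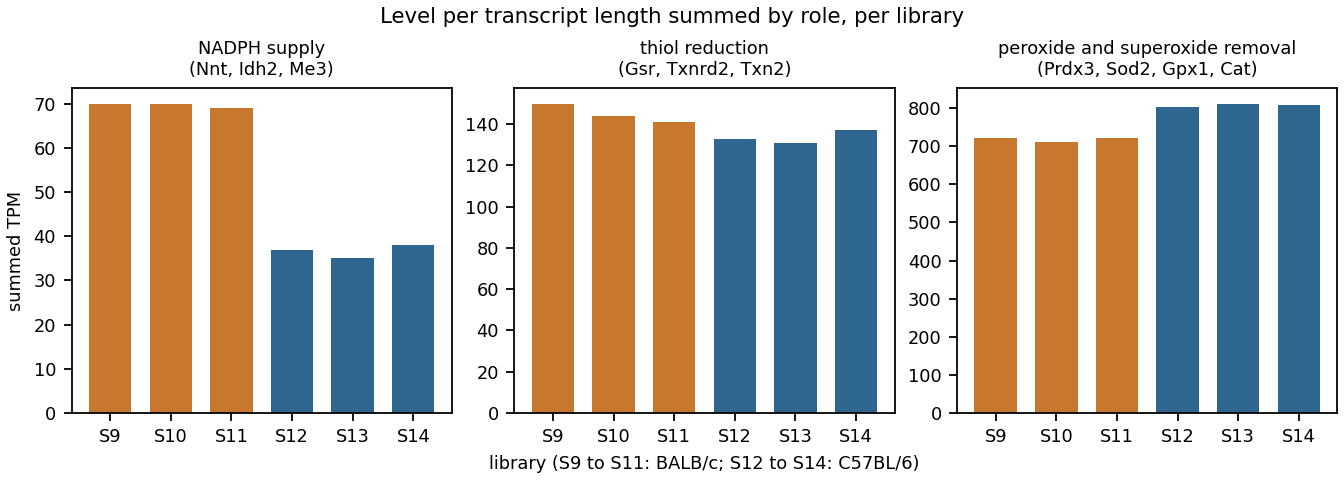
Summed TPM, a level per transcript length, of the members by role in each library; bars start at 0, and the panels have their own ranges. The NADPH-supplying genes fall from 69.1 to 70.0 TPM in the BALB/c libraries (orange) to 35.0 to 38.1 TPM in the C57BL/6 libraries (blue), and the peroxide-removing genes lie at 712 to 722 and 802 to 812 TPM.

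Around the members stands a wider list of 51 genes of NADPH supply and peroxide defence, of which 47 were tested. Of these, 21 were higher in C57BL/6, 16 were lower and 10 were not called by the quasi-likelihood test of edgeR, Benjamini-Hochberg adjusted, with 2 changed over 2-fold. Their median log2 fold change was 0.07. For all genes tested the shares were 52.9% called, 27.0% higher, 25.9% lower and 13.3% changed over 2-fold. The 21 higher and 16 lower became 14 and 20 with plain library sizes and 12 and 21 with limma on log2(TPM + 1), whereas 20 or 21 were higher and 14 or 16 lower with DESeq2, its size factors or upper-quartile factors. Without BALB/c replicate 11 the number changed over 2-fold was 4.

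The other genes of mitochondrial NADPH and NADP supply moved in both directions, 2 higher, 3 lower and 3 not called among 8. The 2 higher were Mthfd2l, given below, and Me2, which was not higher per length (means of 14.4 and 14.1 TPM). Those of the folate pathway with the highest levels were lower, Shmt2 (serine hydroxymethyltransferase 2) at 217 ± 8.51 CPM in BALB/c against 188 ± 0.217 CPM in C57BL/6 (log2 fold change -0.21) and Mthfd2 at 171 ± 6.43 and 144 ± 8.19 CPM (-0.26). Mthfd2l, a second dehydrogenase of that pathway, was higher from few reads, at 0.851 ± 0.0979 and 1.94 ± 0.0873 CPM, with a log2 fold change of 1.18 ± 0.19 (SE, adjusted p = 0.000741, edgeR). Glutamate dehydrogenase (Glud1) had 286 ± 7.80 and 281 ± 4.22 CPM (SD, n = 3) and was not called. The lowest log2 fold change among these 8 was -0.51 ± 0.05 (SE), in Mthfd1l, against -0.57 ± 0.05 in Idh2.

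In NADPH supply outside mitochondria, mostly cytosolic but with H6pd of the endoplasmic reticulum, all 8 genes were called (52.9% of all genes tested), 4 higher and 4 lower, with log2 fold changes from -0.42 to 0.90. The dehydrogenases of the pentose phosphate pathway went opposite ways, Pgd from 126 ± 2.58 to 114 ± 6.26 CPM and G6pdx from 76.4 ± 4.52 to 84.7 ± 2.70 CPM (SD, n = 3), although per length G6pdx had means of 50.0 and 49.1 TPM. Nadk, the cytosolic kinase that makes NADP, went from 126 ± 7.29 to 147 ± 2.13 CPM, and per length the strains overlapped, with means of 62.6 and 64.3 TPM. Idh1, the cytosolic counterpart of Idh2, was lower as well, with a log2 fold change of -0.42 ± 0.05 (SE, adjusted p = 0.000105, edgeR). Me1, the cytosolic counterpart of Me3, was higher by 0.63 ± 0.08 (SE, adjusted p = 0.000164, edgeR), and so was Me2, another malic enzyme of mitochondria, at 75.6 ± 4.32 and 83.9 ± 1.13 CPM (log2 fold change 0.15), although per length Me2 had means of 14.4 and 14.1 TPM.

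Of 8 further genes of mitochondrial peroxide and thiol defence, 3 were higher, 1 was lower and 4 were not called. The 3 with the highest levels differed little. Gpx4, the peroxidase of lipid hydroperoxides, had 210 ± 10.2 and 224 ± 9.87 CPM, and Slc25a39, a carrier of glutathione into mitochondria, had 123 ± 1.38 and 126 ± 2.73 CPM (SD, n = 3), and neither was called. Sod1, the copper and zinc dismutase, was higher by 0.15 ± 0.05 on the log2 scale of CPM (SE, adjusted p = 0.0301, edgeR) but had means of 268 TPM in BALB/c and 261 TPM in C57BL/6.

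The thioredoxin, peroxiredoxin and glutathione genes outside mitochondria again split, 8 higher, 7 lower and 1 not called among 16 tested, with log2 fold changes from -0.55 to 0.94. Most act in the cytosol, but Prdx4 acts in the endoplasmic reticulum, Gpx3 is secreted, and Slc7a11, at 0.94, carries cystine across the plasma membrane. Txn1, the cytosolic thioredoxin, fell from 200 ± 8.17 to 155 ± 1.88 CPM. Prdx1 was lower at 279 ± 9.82 and 255 ± 7.71 CPM, and Prdx2 was higher at 85.6 ± 2.01 and 102 ± 1.11 CPM (SD, n = 3).

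The last list holds Nrf2 (Nfe2l2), the factor that turns on many antioxidant genes, its inhibitor Keap1 and 5 of its textbook targets. Of these 7 genes 4 were higher, all of them targets, and 1 was lower, Keap1 (-0.13), where 27.0% and 25.9% of all genes tested were. The list is partial, since other known targets stand in the lists above, among them, with their log2 fold changes, Gclc (-0.21), Txn1 (-0.37), Prdx1 (-0.13) and Pgd (-0.14), which were lower, and Gclm (0.38), Txnrd1 (0.38), Srxn1 (0.69), Slc7a11 (0.94), Me1 (0.63) and G6pdx (0.15), which were higher. Nqo1, a quinone reductase, rose from 16.8 ± 2.82 to 39.9 ± 0.208 CPM, with a log2 change of 1.25 ± 0.10 (SE, adjusted p = 8.03e-06, edgeR). Hmox1, heme oxygenase 1, rose from 45.4 ± 4.11 to 90.5 ± 1.15 CPM, and the ferritin light chain gene Ftl1 from 3134 ± 172 to 4376 ± 179 CPM. The heavy chain gene Fth1 had 1003 ± 28.1 and 1066 ± 21.8 CPM and was not called, nor was Nfe2l2 itself, with a log2 fold change of 0.07. The median of these 7 genes, Keap1 included, was 0.48, against -0.01 over all genes. The list was chosen with earlier results of these data known and leaves out the targets above. Its median therefore does not describe Nrf2 targets as a set.

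**Figure D5:**
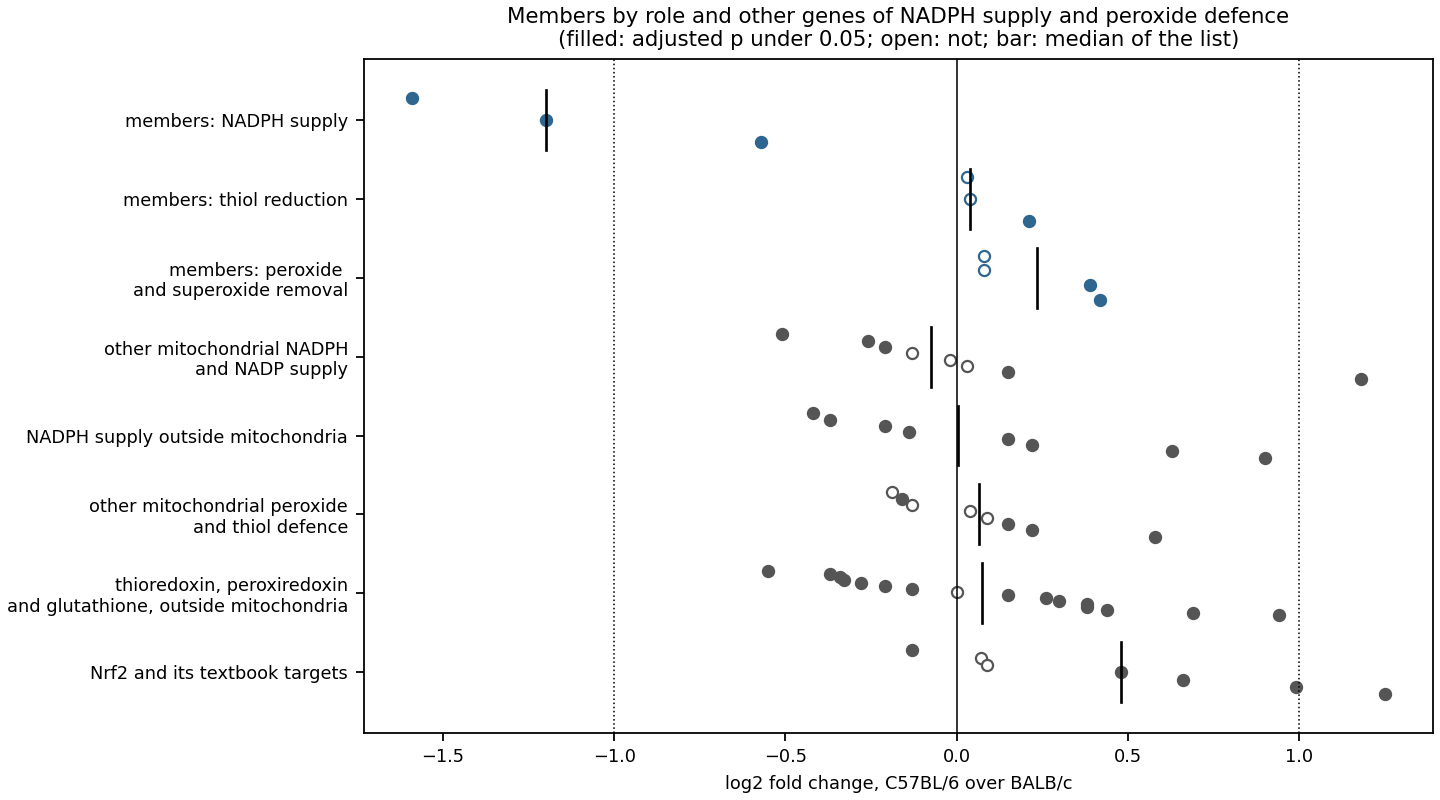
Log2 fold change (C57BL/6 over BALB/c) of each member by role (blue) and of the other genes of NADPH supply and peroxide defence that were tested, by list (grey); filled points passed an adjusted p of 0.05 in edgeR's quasi-likelihood test, open points did not, and the bar is the median of a list. Nnt (-1.20) and Me3 (-1.59) stand to the left of every gene of the other lists, whose lowest value is -0.55.

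Promoters are shown for Idh2 and Cat because these members moved in opposite directions. Of the 10 members 8 had an entry in the table of RefSeq promoters (GRCm38.p6), which spans 250 bases before to 50 after the start of a gene. Nnt and Gsr had no entry, so their promoters were not searched. In the sequences below, the 250 bases before the start, the capitals mark CCAAT boxes (CCAAT) and GC boxes (GGGCGG) read on either strand, which do not overlap each other here.
Idh2, chr7:80115351-80115600, minus strand: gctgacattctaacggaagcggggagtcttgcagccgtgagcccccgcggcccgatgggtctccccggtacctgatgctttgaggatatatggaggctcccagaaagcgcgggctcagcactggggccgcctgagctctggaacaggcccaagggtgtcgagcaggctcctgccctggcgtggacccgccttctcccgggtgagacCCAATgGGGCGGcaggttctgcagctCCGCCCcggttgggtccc
Cat, chr2:103485154-103485403, minus strand: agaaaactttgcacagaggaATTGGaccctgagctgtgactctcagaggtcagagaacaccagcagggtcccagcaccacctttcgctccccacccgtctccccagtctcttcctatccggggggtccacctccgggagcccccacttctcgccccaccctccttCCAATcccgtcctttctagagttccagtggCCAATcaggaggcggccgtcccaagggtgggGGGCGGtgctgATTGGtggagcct
The Idh2 stretch holds 1 CCAAT box and 2 GC boxes, and the Cat stretch holds 4 CCAAT boxes and 1 GC box. Over the 300 bases of the table, a CCAAT box was found in 4 of the 8 members and in 37.4% of all 32851 promoters, and a GC box in 7 of the 8 and in 35.7% of all. The Nrf2 element TGACNNNGC, found in 12.4% of all promoters, was in none of the 8 windows. The same held for an estrogen-related receptor site (TCAAGGTCA, 0.423% of all) and the E-box CACGTG (7.15%). All motifs were searched on both strands, and a match of letters is no evidence of binding.

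The 5 genes whose profile over the 6 libraries was most like that of Nnt were found among 9361 genes with a mean of at least 5 CPM, by the root mean square difference of centred log2(CPM + 1) values. Among them were the mitotic kinase gene Ttk (0.0478), Pttg1, which codes for securin (0.0534), the kinesin gene Kifc5b (0.0555) and Zdhhc24 (0.0655). This choice fixes that they were lower in C57BL/6 by about as much as Nnt.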

How the data were processed

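RNA of BMMCs was analysed on day 20. The authors checked reads with FastQC 0.11.5 and quantified transcripts with Salmon 0.8.2, and deposited for each library estimated counts, which need not be whole, and TPM values. The methods name Ensembl transcripts of GRCm39, whereas the deposited tables list RefSeq accessions. Of 129698 transcripts, 106440 were matched without version to a RefSeq gene table of GRCm38.p6, and unmatched transcripts, with 2.69% to 3.12% of the reads, were left out. Gene coordinates come from GENCODE vM39 (GRCm39).

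Per gene, these estimated counts were added up and rounded. Strains were compared with edgeR 4.0.16 (R 4.3.3) by its quasi-likelihood test, with TMM factors, filterByExpr at a minimum count of 10, strain as the only term and Benjamini-Hochberg adjustment. An adjusted p under 0.05 was a call. On simulated counts of 12461 genes, 177 of 200 genes changed 1.5-fold were recovered, 191 of 200 at 2-fold and 197 of 200 at 4-fold, with 19 false calls. The simulation gave every gene the same spread between libraries and changed few genes, up or down at random. It held no shift of scaling between the strains, so it does not bear on calls that moved with the scaling. For 3 libraries per strain the smallest p of an exact permutation test is 0.1. The biological coefficient of variation, 1 common value over all genes, was 0.0665. Whether depth or the number of libraries limits precision was not compared gene by gene. CPM values use corrected library sizes.

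Alternatives were DESeq2 1.42.0, other scalings, length offsets, filters and matchings, limma 3.58.1 on TPM, and each library left out. Named were all members, pathway genes changed over 2-fold and the 3 most abundant of each list, 3 neighbours on each side of Nnt and the 5 genes most like it. Idh1, Me1, Me2, Mthfd1l, H6pd, Prdx4, Gpx3, Slc7a11, Nfe2l2, Zfp934, Zfp69, Gm36684, Rps6ka2, Gclc, Gclm, Txnrd1, Srxn1, Keap1, Cma1, Mcpt8 and Cd200r3 were named after their values were seen. The members and lists were chosen with earlier results of these data known. Some genes that these rules cover are not reported here.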

Additional observations from a re-analysis of the deposited data

How the results depend on the processing

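Under 18 alternatives Nnt, Idh2, Me3, Gpx1 and Cat kept their direction and their call, with log2 fold changes between -1.36 and -1.16 for Nnt (adjusted p at most 4.92e-05 by edgeR, DESeq2 or limma), -0.75 and -0.54 for Idh2, -1.85 and -0.93 for Me3, 0.24 and 0.45 for Gpx1 and 0.21 and 0.43 for Cat. Gsr lost its call with plain library size in edgeR (0.06) and with limma on log2(TPM + 1) and log2(TPM + 0.1) (0.02 in both). In the same order of these 3 settings the sign turned for Txnrd2 (-0.10, -0.12 and -0.13), Txn2 (-0.11, -0.15 and -0.15), Prdx3 (-0.06, -0.10 and -0.10) and Sod2 (-0.06, -0.09 and -0.09), and for Txnrd2 also without BALB/c replicate 10 (-0.02) and without C57BL/6 replicate 14 (-0.01), in a range of -0.02 to 0.11 with 1 library left out. With these 3 settings the median of all genes moved from -0.01 to -0.15, -0.15 and -0.18. With DESeq2, its size factors or upper-quartile factors, which also replace TMM, it stayed between -0.03 and -0.00, these signs held and Gsr kept its call.

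With limma on log2(TPM + 1) and log2(TPM + 0.1), 5 members were called lower with both, Txn2 and Prdx3 in addition, and 1 member, Nnt, was called over 2-fold with a pseudocount of 1. Of the other pathway genes 12 were called higher and 21 lower with either in place of 21 and 16, and 1 over 2-fold in place of 2, or 4 without BALB/c replicate 11. Of all genes, 2035 and 2029 were called higher with these pseudocounts in place of 3361, and 5834 and 5830 lower in place of 3227, or 5520 lower with plain library size. Over 2-fold, 799 were called with a pseudocount of 1 and 1017 with at least 10 counts in every library, in place of 1653. With 1 library left out, the members called stayed at 3 higher and 3 lower, Nnt lay between -1.24 and -1.16, and over 2-fold 2 to 4 pathway genes were called.

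No paired analysis was possible because the library numbers of the strains are not shared. Nnt has 1 listed transcript, so shares of its transcripts could not be compared. No gene shared 25% or more of a member's words of 31 bases, so summing such genes gave no value.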
